A study of Mus musculus with 22 samples.

Results

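Msgn1, Tbx6, Mesp2, Ripply1 and Ripply2 were followed through the presomitic mesoderm and somite cells of mouse gastruloids, as 5 of the 32285 genes counted in the series. They were taken by symbol, each matched 1 row, and all 5 were detected. Gastruloids are aggregates of embryonic stem cells, here of the single line E14Tg2A, which form many of the cell types of an early embryo. Every group had the same genotype and the same treatment: 300 cells were seeded per well, and 3 µM CHIR99021, a GSK3 inhibitor that activates Wnt signalling, was given at 48 h. The groups therefore differ in day of culture and in experiment, and there is no untreated group. Single-cell RNA-seq was run at day 3 and day 4 without barcodes for single gastruloids (10X experiment, 1 lane each), and with such barcodes (MULTI-seq) at day 5 in MULTI-seq 1, at days 4 and 4.5 in MULTI-seq 2, and at days 3, 3.5, 4, 4.5 and 5 in MULTI-seq 3. In MULTI-seq 3, days 3.5 and 4 shared 1 pool and days 4.5 and 5 shared another, while day 3 had a pool of its own. Samples of MULTI-seq 2 from days 3 and 3.5 are not analysed here. Several gastruloids were pooled in each library, and the lanes of a pool were loaded with cells of the same gastruloids.

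The presomitic mesoderm (PSM) is the tissue beside the tail-end midline from which somites, the segments of the trunk, bud off in a rhythm. Msgn1, a basic helix-loop-helix factor downstream of Wnt signalling, and Tbx6, a T-box factor needed for paraxial mesoderm to form, are known from its posterior part. At the front, where a segment border is being set, Mesp2 (another basic helix-loop-helix factor) is switched on, with Tbx6 and Notch signalling as known inputs. Ripply1 and Ripply2 are known as adaptors that bring Groucho/TLE co-repressors to T-box factors, and they end the segmentation programme as the somite forms.

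The deposited cell table held 77674 cells of 18 lanes under 25 cell type names, and 53730 of these cells carried the barcode of 1 of 136 gastruloids. The gastruloid is the replicate: its cells were summed, whole or under 1 name, and levels are given as CPM, the transcript molecules (UMIs) of a gene per 1000000 UMIs of that sum. Whole sums held 1293296 to 57333371 UMIs, and the median cell of a lane 8287 to 38443. Mitochondrial UMIs took a median of 1.94% to 2.26% of a cell in the lanes of MULTI-seq 3 and 4.85% to 5.48% in the others. Libraries of 1 pool shared at most 15 cell barcodes (0.278%), and other pairs of libraries at most 13 (0.41%). Of markers listed for the tissues, 3 of 8 for posterior PSM (Hes7, Dll1 and Rspo3), 6 of 7 for anterior PSM and 7 of 8 for somites were highest in cells of the matching names. The exceptions T, Dll3, Wnt3a, Cyp26a1 and Fgf17 were highest in Notochord, Neurons, neuromesodermal progenitors (NMPs), Early Nascent Mesoderm and NMPs, Mesp1 was highest in Early Nascent Mesoderm and Foxc2 in Late Anterior PSM. Because the reads come from the 3′ end and the names are clusters of these same genes, levels are compared neither between genes nor, by a test, between names.

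In the mouse genome (GRCm38, GENCODE vM21), Msgn1 (ENSMUSG00000047002) is a gene of 1 exon on the minus strand at chr12:11208360-11208972. Tbx6 (ENSMUSG00000030699) spans chr7:126781483-126785560 on the plus strand with up to 8 exons. Mesp2 (ENSMUSG00000030543) lies on the same chromosome at chr7:79810727-79813439, plus strand, with 2 exons and 16.94 kb from its paralog Mesp1. Ripply1 (ENSMUSG00000072945) is X-linked, at chrX:139779549-139782353 on the minus strand, and Ripply2 (ENSMUSG00000047897) lies at chr9:87015537-87019917 on the plus strand, each with 4 exons. All 5 code for proteins.

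The 250 bases before the RefSeq start sites (GRCm38.p6) are shown for Msgn1, which marked the posterior names, and for Mesp2 and Ripply2, which were high in the same anterior names, because the known inputs of these genes bind short motifs. Capitals mark matches, on either strand, to the T-box core GGTGTG, the RBPJ (Notch) site GTGGGAA and the TCF/LEF (Wnt) core CTTTGA. The windows are chr12:11208949-11209198 (minus strand, where the GENCODE gene begins inside the window), chr7:79810477-79810726 (plus) and chr9:87015287-87015536 (plus).
Msgn1: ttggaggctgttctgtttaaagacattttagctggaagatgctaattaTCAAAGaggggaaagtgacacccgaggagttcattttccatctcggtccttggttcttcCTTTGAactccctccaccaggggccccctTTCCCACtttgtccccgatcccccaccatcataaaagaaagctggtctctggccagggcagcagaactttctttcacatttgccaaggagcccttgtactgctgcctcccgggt
Mesp2: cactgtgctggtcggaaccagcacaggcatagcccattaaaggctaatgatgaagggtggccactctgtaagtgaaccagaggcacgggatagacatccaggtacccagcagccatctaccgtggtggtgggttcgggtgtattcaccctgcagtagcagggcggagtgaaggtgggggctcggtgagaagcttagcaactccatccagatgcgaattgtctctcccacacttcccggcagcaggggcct
Ripply2: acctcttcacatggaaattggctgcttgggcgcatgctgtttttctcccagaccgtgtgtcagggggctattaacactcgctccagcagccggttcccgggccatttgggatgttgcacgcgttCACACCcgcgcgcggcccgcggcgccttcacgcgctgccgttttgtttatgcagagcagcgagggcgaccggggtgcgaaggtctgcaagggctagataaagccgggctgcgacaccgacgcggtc
The Msgn1 window held the TCF/LEF core at 202 and 143 bases before the start, and the RBPJ site at 114 bases. The Ripply2 window held 1 T-box core, 126 bases before the start, as did the Ripply1 window at 154 bases. None of these motifs was in the windows of Mesp2 and Tbx6, which says only that the letters are not in those 250 bases. The E-box CANNTG, searched as well and not capitalised, was in the windows of Msgn1, Mesp2, Ripply1 and Ripply2. Of 32851 mouse windows of this length, 16.3% held GGTGTG, 5.42% GTGGGAA, 13.8% CTTTGA and 66.2% CANNTG. A match is a description of the letters, not a site in use.

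The cell type names form a ladder from Early and Late Posterior PSM over Early and Late Anterior PSM to Somites and Mature Somites, and the genes were high at different places along it. Early and Late are not positions, and their cells differed by day. In MULTI-seq 3, Early Posterior PSM took a median of 12.1% of a gastruloid's cells at day 3.5 and 0% at day 5. Late Posterior PSM took 1.61% and 8.72%. Within the ladder Msgn1 was a gene of the posterior names. In Early Posterior PSM of MULTI-seq 3 it stood at 27.3 ± 11.7 CPM at day 3 (SD, n = 11 gastruloids, lowest 14.4, median 22.9, highest 51.8). It stood at 19.99 ± 5.76 at day 3.5 (n = 13, lowest 10.8, median 22.0, highest 27.4) and at 5.29 ± 2.21 at day 4 (n = 16, lowest 2.04, median 4.98, highest 10.9). All gastruloids of day 4 lay below all of day 3, and the highest of them just met the lowest of day 3.5. At day 4 the order of names was Late Posterior PSM (11.8 ± 4.41, n = 14), Early Posterior PSM and NMPs (1.01 ± 1.16, n = 14), with the posterior names overlapping. In anterior PSM it was nearly absent: Early Anterior PSM at day 4 held 3 UMIs over 14 gastruloids, and Late Anterior PSM held 0 UMIs at days 4 and 4.5 and 1 at day 5. The posterior PSM names held 47.9% of all Msgn1 UMIs at day 3 of MULTI-seq 3 and 85.2%, 91.8%, 90.4% and 92.98% at days 3.5, 4, 4.5 and 5, from 5.6%, 29.4%, 22.9%, 13.2% and 8.5% of the cells.

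Tbx6 was high in both posterior names and persisted at a lower level into the anterior ones. In Early Posterior PSM it stood at 79.3 ± 24.2 CPM at day 3 (n = 11, lowest 38.0, median 82.3, highest 118), 166 ± 25.6 at day 3.5 (n = 13, lowest 115, median 169, highest 221) and 131 ± 32.1 at day 4 (n = 16, lowest 91.3, median 126, highest 207). The ranges of days 3 and 3.5 met only at their ends, and days 3.5 and 4 overlapped. At day 4 Late Posterior PSM had 155 ± 13.6 CPM (n = 14, lowest 139, median 149, highest 179), and Early Posterior PSM, the next in order, overlapped with it. Among names with at least 6 gastruloids, NMPs came after these at 41.2 ± 18.1 (n = 14) and did not overlap with Early Posterior PSM. Early Nascent Mesoderm, with 4 gastruloids, had 55.4 ± 17.1. Anterior PSM had 28.6 ± 9.70 (Early, n = 14) and 31.1 ± 11.3 (Late, n = 10), Somites 4.58 ± 1.70 (n = 12) and Mature Somites 1.34 ± 0.534 (n = 7). At day 5 Late Posterior PSM (148 ± 24.6, n = 16) and Late Anterior PSM (35.3 ± 12.6, n = 15) again did not overlap.

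Mesp2 and Ripply2 were genes of the anterior names. At days 4, 4.5 and 5 the posterior names held a larger share of the UMIs of Mesp2 than of Ripply2. At day 4 Mesp2 stood at 102 ± 48.1 CPM in Late Anterior PSM (n = 10, lowest 29.5, median 107, highest 185), 66.5 ± 26.8 in Early Anterior PSM (n = 14, lowest 35.4, median 58.0, highest 117) and 29.0 ± 12.9 in Early Posterior PSM (n = 16, lowest 6.65, median 31.7, highest 51.2). Neighbours in that order overlapped. Ripply2 stood at 209 ± 102 CPM in Late Anterior PSM (lowest 71.5, median 194, highest 361), 142 ± 36.7 in Early Anterior PSM (lowest 90.5, median 133, highest 194) and 9.83 ± 5.42 in Early Posterior PSM (lowest 0, median 10.7, highest 16.8). Here every Early Posterior PSM value lay below every value of the anterior names. Late Nascent Mesoderm, outside the ladder, had 41.0 ± 28.4 CPM of Ripply2 (n = 14, lowest 10.6, highest 97.6) and overlapped each of these names. At day 5 both genes were highest in Late Anterior PSM, Mesp2 at 127 ± 35.2 CPM (n = 15, lowest 80.4, median 128, highest 193) and Ripply2 at 399 ± 170 (lowest 201, median 304, highest 774). Early Anterior PSM, at most 0.687% of a gastruloid's cells on that day, had too few cells to enter the order. The next name with enough cells was Late Posterior PSM for both, at 19.2 ± 9.44 for Mesp2 and 4.67 ± 2.84 for Ripply2 (n = 16). Neither gene overlapped there with Late Anterior PSM. In Somites of MULTI-seq 3 both were low: Mesp2 had 3.33, 2.80 and 1.42 CPM and Ripply2 6.84, 7.42 and 4.196 CPM on average at days 4, 4.5 and 5. In Somites of MULTI-seq 1 at day 5 (n = 13) Mesp2 stood at 11.1 ± 20.9 CPM (median 0, highest 69.3) and Ripply2 at 11.5 ± 25.3 CPM (median 0, highest 91.03), with 7 of the 13 gastruloids at 0 for each gene. The anterior names held 79.5%, 93.7% and 94.9% of the Ripply2 UMIs at days 4, 4.5 and 5, from 15.5%, 5.9% and 5.2% of the cells. For Mesp2 the anterior names held 58.5%, 68.1% and 75.2%, and the posterior names 24.8%, 25.8% and 18.8%. In MULTI-seq 2 the posterior names held more of the Mesp2 UMIs than the anterior names at day 4 (41.5% and 36.2%, from 22.8% and 7.8% of the cells) and fewer at day 4.5 (19.3% and 72.6%, from 12.6% and 5.5%). The mean level of Mesp2 at day 4 of MULTI-seq 2 was 40.4 ± 32.5 CPM in Early Anterior PSM (n = 5, lowest 8.48, median 22.8, highest 80.4) and 31.4 ± 17.1 in Early Posterior PSM (n = 8, lowest 2.31, median 34.4, highest 54.6), and these overlapped.

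Within the ladder Ripply1 was found from the anterior PSM names to the somite names, and from day 3.5 it was not detected in the posterior names. At day 4 it stood at 9.46 ± 7.25 CPM in Late Anterior PSM (n = 10, lowest 1.19, median 7.65, highest 24.0), 4.82 ± 4.11 in Early Anterior PSM (n = 14, lowest 0.583, median 3.68, highest 15.0), 2.36 ± 2.55 in Somites (n = 12) and 1.64 ± 0.936 in Mature Somites (n = 7). Outside the ladder on that day, Late Nascent Mesoderm had 4.65 ± 3.75 CPM (n = 14) and Head Mesoderm 2.83 ± 1.98 (n = 7). All 6 names of the ladder held 54.3% of the Ripply1 UMIs of day 4, from 48.5% of the cells. At days 4.5 and 5 they held 92.95% and 88.9%. At day 5 Late Anterior PSM (8.55 ± 5.01, n = 15), Head Mesoderm (5.94 ± 3.11, n = 7), Somites (3.32 ± 3.73, n = 12) and Mature Somites (2.26 ± 1.09, n = 16) formed an order in which each neighbour overlapped the next. Not 1 Ripply1 UMI was counted in the 1917 Early Posterior PSM cells of day 4 in MULTI-seq 3, which allows a level of up to 0.0495 CPM. The same held for the 1232, 543 and 939 Late Posterior PSM cells of days 4, 4.5 and 5, with limits of 0.075, 0.187 and 0.116 CPM, and for the 1326 Late Posterior PSM cells of MULTI-seq 1, with a limit of 0.193. These limits, 3 counts of the total, cover counting error only. Somite names held 11.96%, 54.7% and 55.6% of the Ripply1 UMIs at days 4, 4.5 and 5, from 10.04%, 23.8% and 31.7% of the cells. The anterior names held 42.3%, 38.3% and 33.3%, from 15.5%, 5.9% and 5.2% of the cells. They thus held more than the somite names at day 4 and less at days 4.5 and 5. In MULTI-seq 1 at day 5 the anterior names held more, with 37.3% of the 75 Ripply1 UMIs in somite names and 61.3% in anterior names. For Ripply2 the somite names of MULTI-seq 3 held 0.816%, 1.72% and 1.86%.

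**Figure D1:**
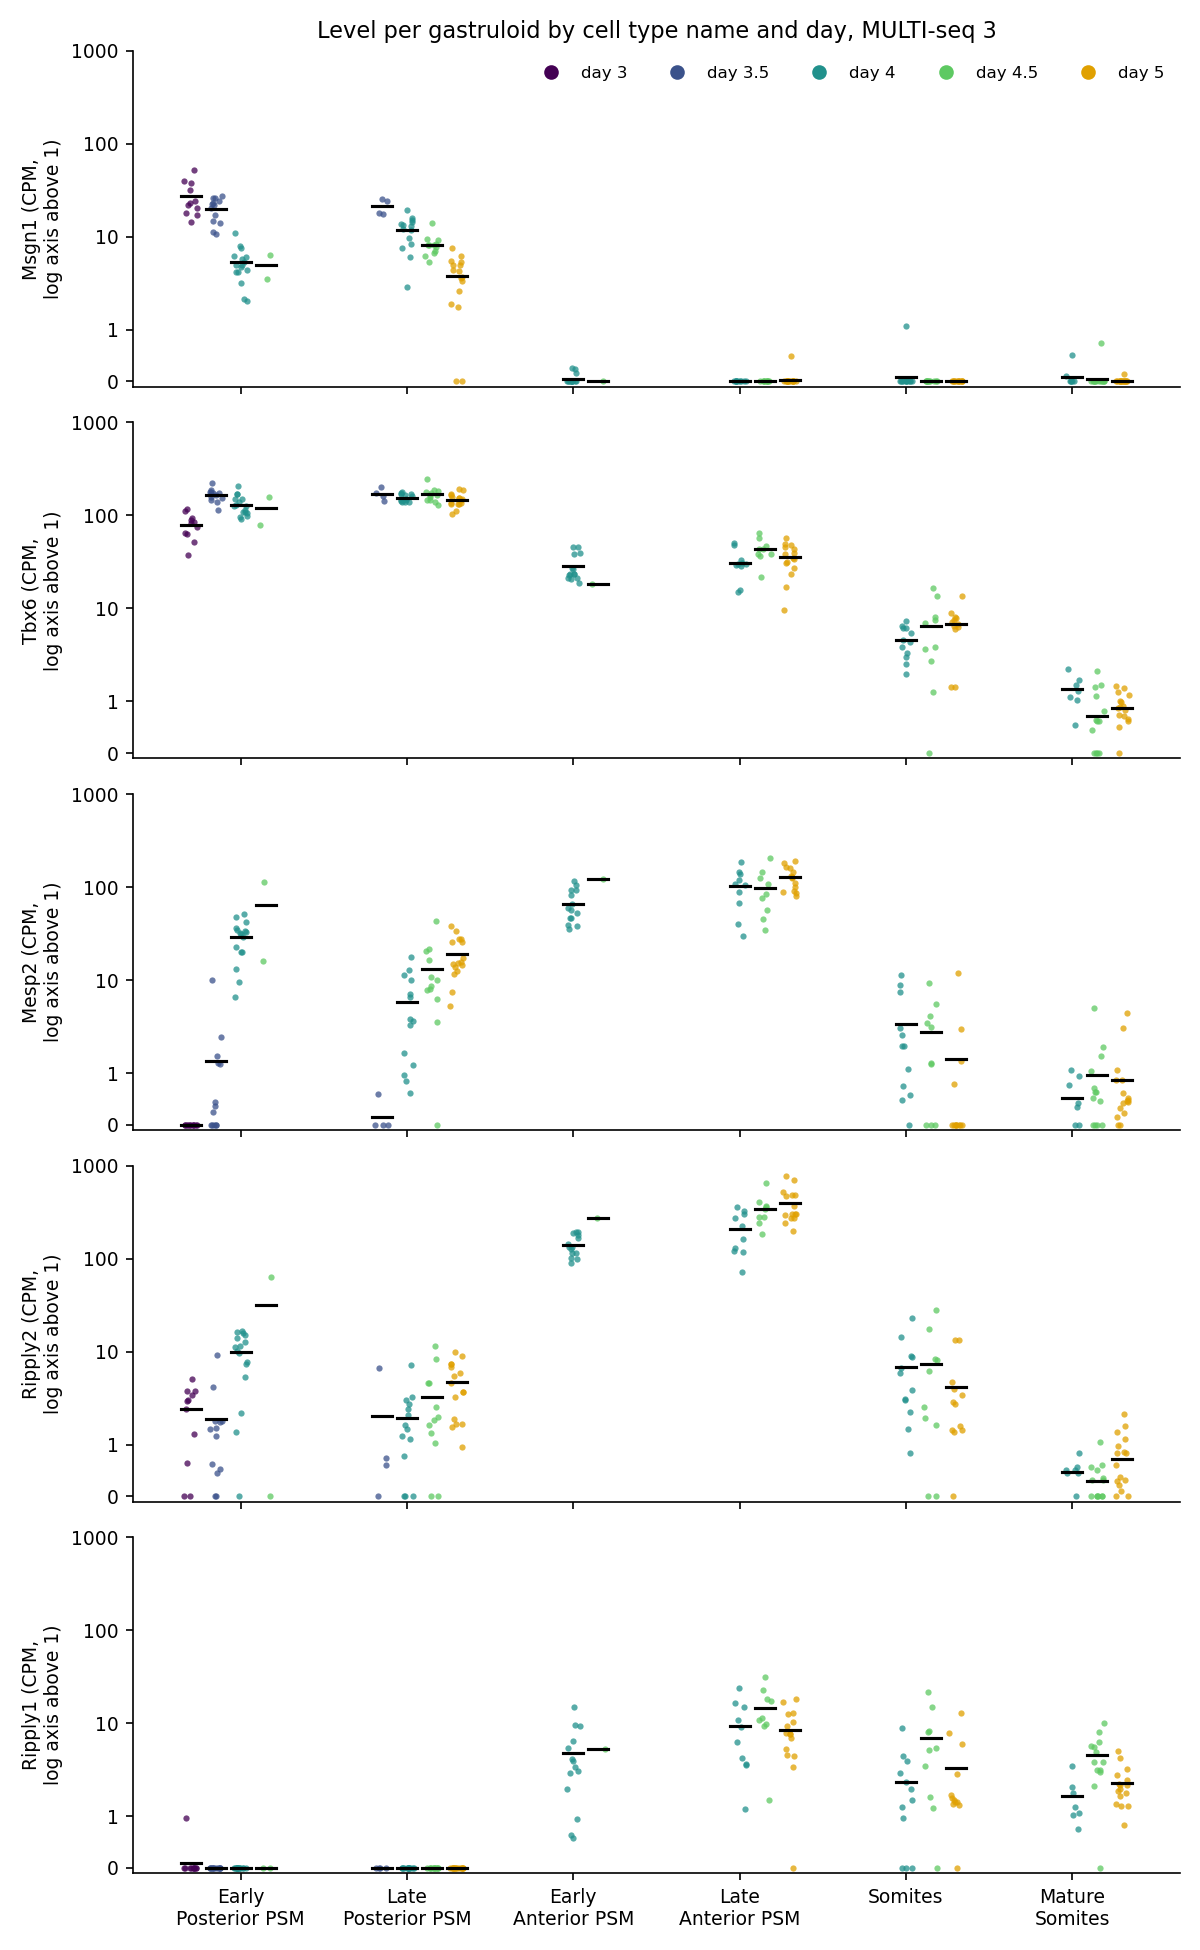
Level of each gene (CPM on an axis that is logarithmic above 1) in single gastruloids of MULTI-seq 3 with at least 10 cells of a name. Columns are cell type names, posterior PSM first, then anterior PSM and somites, with Early before Late. Colours are days, points are gastruloids and bars their means. Msgn1 and Tbx6 are highest in the posterior PSM names (Tbx6 155 CPM in Late Posterior PSM and 4.58 in Somites at day 4), Mesp2 and Ripply2 are highest in the anterior PSM names, and Ripply1 lies at 0 in the posterior names from day 3.5.

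Between day 3.5 and day 4, in 1 pool of MULTI-seq 3, Msgn1 fell in whole gastruloids while Mesp2, Ripply2 and Ripply1 rose. Mesp2 went from 1.41 ± 2.57 CPM (n = 16, lowest 0.112, median 0.682, highest 10.9) to 18.1 ± 11.9 (n = 16, lowest 1.02, median 15.1, highest 35.7), and Ripply2 from 1.42 ± 1.90 (lowest 0.324, median 0.936, highest 8.42) to 27.5 ± 18.3 (lowest 1.16, median 27.9, highest 67.3). Both pairs of ranges overlap, while each median of day 4 lies above the highest value of day 3.5. The log2 fold change in edgeR's quasi-likelihood test with Benjamini-Hochberg adjustment was 3.45 for Mesp2 (SE 0.51, adjusted p = 1.3e-06) and 4.05 for Ripply2 (SE 0.47, adjusted p = 2.5e-08). Msgn1 went from 5.45 ± 4.83 CPM (lowest 0.0701, median 4.14, highest 15.1) to 1.80 ± 1.43 (lowest 0.32, median 1.51, highest 4.98), a log2 fold change of -1.65 (SE 0.47, adjusted p = 0.0035). Tbx6, at 46.6 ± 43.9 and 38.4 ± 23.5 CPM, did not pass the test (-0.34, SE 0.43, adjusted p = 0.51). Thus 3 of the 4 genes that passed the filter on low counts were called, where 60.3% of the 13262 genes tested were. That filter keeps a gene with enough counts on either day alone. Mesp2 and Ripply2 were low at day 3.5, so this count is only a description. Ripply1, below that filter, was at 0 in 9 of 16 gastruloids of day 3.5, which held 8 UMIs in all, and had a median of 1.54 CPM at day 4 (lowest 0, highest 3.16). In the fit without a filter, where 36.6% of genes were called, it rose by 5.04 (log2, SE 0.64, adjusted p = 2.0e-07).

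Whole gastruloids cannot tell fewer cells of a type from less RNA per cell, and the makeup of the gastruloids moved at the same time. The anterior PSM names took a median of 0% of a gastruloid's cells at day 3.5 (13 of 16 had none) and 15.9% at day 4 (lowest 1.03%, highest 25.6%), and the posterior names 13.7% (1.25% to 66.7%) and 20.5% (3.19% to 49.2%). Msgn1, Mesp2 and Ripply2 were also called within Early Posterior PSM, as was Tbx6, which was not called in whole gastruloids. The name Early Posterior PSM rests on these same counts. Msgn1 fell by 1.96 (log2, SE 0.16, adjusted p = 1.0e-11, edgeR) and Tbx6 by 0.49 (SE 0.10, adjusted p = 2.4e-04). Mesp2 rose from 1.35 ± 2.69 CPM (n = 13, 5 at 0, highest 9.92) to 29.0 ± 12.9 (n = 16, none at 0), a log2 fold change of 3.52 (SE 0.36, adjusted p = 9.2e-09). Ripply2 rose as well, by 1.99 (SE 0.36, adjusted p = 6.0e-05; 2.60 without lane B), from 1.89 ± 2.43 to 9.83 ± 5.42 CPM. All 4 genes that passed the filter were called, where 38.2% of 9605 genes were. Mesp2 and Ripply2 were low in these cells at day 3.5 and could pass the filter largely through day 4, so this count is only a description. Ripply1 had 0 UMIs in these cells on both days. Between the 2 days the summed level of the 7 anterior PSM markers in Early Posterior PSM went from a median of 865 CPM (406 to 1331) to 1551 (1250 to 1873), that of the 8 somite markers from 20.4 (8.87 to 62.3) to 147 (102 to 257), and that of the 4 pluripotent and germ cell markers from 179 to 53.2, with Dppa3 at 0 at day 4. The 8 posterior PSM markers had 1664 and 1626 CPM, and the median cell 32662 and 28456 UMIs. Their part in the changes was not tested. At day 3, in a separate pool and hence not tested, Early Posterior PSM held 0 Mesp2 UMIs in all 11 gastruloids.

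**Figure D2:**
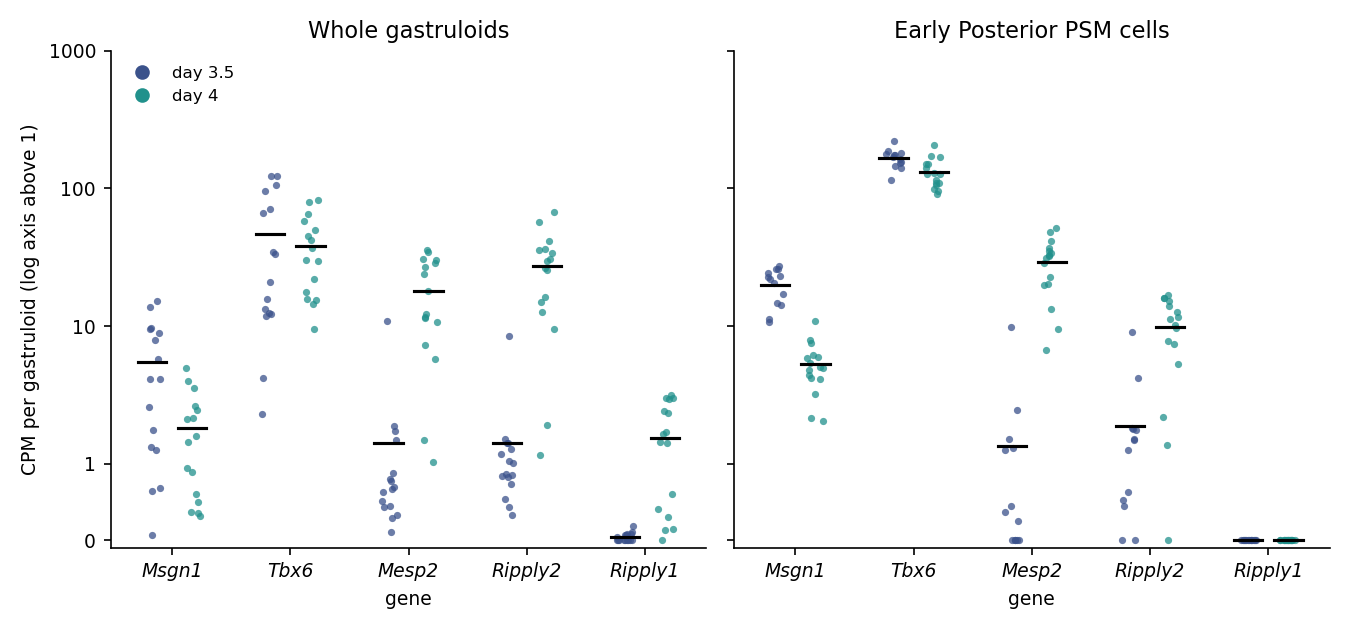
Level of the 5 genes (CPM, axis logarithmic above 1) at day 3.5 and day 4 of MULTI-seq 3, in whole gastruloids (left, 16 and 16) and in Early Posterior PSM cells (right, 13 and 16 gastruloids). Points are gastruloids and bars means. Mesp2 moves from 1.35 to 29.0 CPM in Early Posterior PSM, Msgn1 from 19.99 to 5.29, and Ripply1 stays at 0 there.

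None of the 5 genes was called in whole gastruloids in the later interval. Between days 4.5 and 5 of MULTI-seq 3, whole gastruloids had 24.0 ± 18.9 and 16.2 ± 8.03 CPM of Tbx6, 7.97 ± 6.26 and 8.37 ± 4.42 of Mesp2, 20.5 ± 14.6 and 21.8 ± 15.9 of Ripply2, and 1.99 ± 1.59 and 1.35 ± 0.769 of Ripply1 (n = 16 and 16). The spread among gastruloids of 1 day was larger than any of these differences. None of the 4 was called (log2 fold changes -0.62, 0.02, 0.02 and -0.63, adjusted p 0.31, 0.99, 0.99 and 0.28), where 13.3% of genes were. Leaving out 1 lane at a time gave both signs for Mesp2 (-0.069 to 0.092) and Ripply2 (-0.17 to 0.18). Msgn1, below the filter, had 0.858 ± 0.763 and 0.357 ± 0.270 CPM. It gave -1.36 (SE 0.49, adjusted p = 0.10) without a filter, where 5.76% of genes were called. Without lane A of that pool its adjusted p was 0.038, at -1.53.

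Late Posterior PSM could be followed from day 3.5 to day 5 of MULTI-seq 3, and in it the means of Msgn1 and Mesp2 lay in opposite orders over the days while Tbx6 changed little. Msgn1 had 17.6, 17.96, 24.5 and 25.2 CPM in the 4 gastruloids of day 3.5 with enough cells. It had 11.8 ± 4.41 at day 4 (n = 14, lowest 2.89, median 12.7, highest 19.6), 8.21 ± 2.19 at day 4.5 (n = 12, lowest 5.30, median 8.16, highest 14.0) and 3.76 ± 2.10 at day 5 (n = 16, lowest 0, median 3.98, highest 7.50). Each day overlapped the next, and day 3.5 lay above all of days 4.5 and 5. Mesp2 had 1 UMI in the 4 gastruloids of day 3.5. It had 5.82 ± 5.32 CPM at day 4 (lowest 0.613, median 3.75, highest 17.8), 13.1 ± 11.6 at day 4.5 (lowest 0, median 9.34, highest 43.7) and 19.2 ± 9.44 at day 5 (lowest 5.29, median 15.3, highest 38.1). Tbx6 had 142, 162, 174 and 202 CPM in the 4 gastruloids of day 3.5, then 155 ± 13.6, 168 ± 30.7 (lowest 128, median 165, highest 246) and 148 ± 24.6 (lowest 104, median 150, highest 192). Only days 4.5 and 5 were tested: pool and interval cannot be told apart between days 4 and 4.5 of MULTI-seq 3, and a test asked for at least 6 gastruloids on each side, which day 3.5 lacks in this name.

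In that test of Late Posterior PSM neither gene that passed the filter was called, Tbx6 at -0.19 (SE 0.08, adjusted p = 0.21) and Mesp2 at 0.45 (SE 0.32, adjusted p = 0.49, edgeR), where 6.72% of genes were. Msgn1, in the fit without a filter, fell by 0.94 (SE 0.22, adjusted p = 0.0030), where 2.87% of genes were called. That call was lost without lane B (-0.66, adjusted p = 0.24). Ripply2 in the same fit gave 0.45 (SE 0.36, adjusted p = 0.60). From day 4.5 to day 5 the median summed level of the somite markers in these cells was 116 and 251 CPM, of the anterior PSM markers 559 and 432, of the neural markers 67.5 and 106 and of the posterior PSM markers 2027 and 1941, and their part in the change was not tested. In MULTI-seq 2, Mesp2 in Late Posterior PSM was at 0 in 4 of 6 gastruloids of day 4 (highest 5.20 CPM) and had 8.92 ± 4.25 CPM in the 8 of day 4.5 (lowest 1.86, median 8.43, highest 14.8). Its 3 and 67 UMIs make a ratio of 11.4 (95% exact interval 3.74 to 56.7, counting error only). In the fit without a filter the log2 fold change was 3.24 (SE 0.59, adjusted p = 3.5e-05), where 0.745% of genes were called. Without lane 3 of that pool the call was lost (4.36, adjusted p = 0.69), in a fit that did not ask for 6 gastruloids on each side. Tbx6, the member that passed the filter there, gave 0.25 (SE 0.10, adjusted p = 0.28), where 0.972% of genes were called, and 0.073 (adjusted p = 0.98) without lane 3. Msgn1, at 9.23 ± 8.09 and 9.90 ± 7.29 CPM, gave -0.20 (SE 0.31, adjusted p = 0.84) without a filter. The fold change of Msgn1, on TMM-scaled counts, is opposite in sign to the difference of the means in CPM. The CPM over all these cells was 11.1 at day 4 and 9.67 at day 4.5, and the medians were 7.86 and 7.80. The highest gastruloid of day 4.5 had 26.6 CPM. The fold change was -0.56 without lane 2 of that pool and -0.95 without lane 3 (adjusted p 0.76 and 0.82). Whole gastruloids of MULTI-seq 2 gave -0.67 for Tbx6, -0.23 for Mesp2 and -0.66 for Ripply2 between these days (adjusted p 0.39, 0.87 and 0.53), and 7.19% of genes were called. Mesp2 changed sign there with the lane left out, to -0.87 without lane 2 and 0.50 without lane 3.

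**Figure D3:**
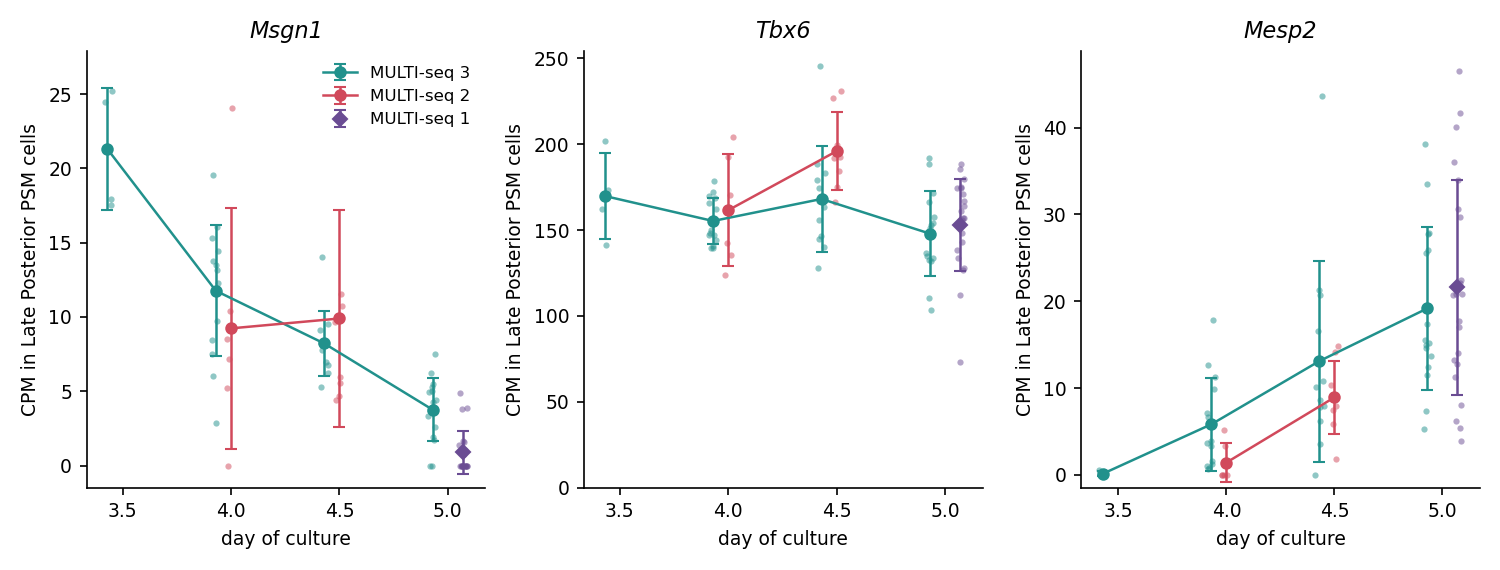
Level in Late Posterior PSM cells (CPM) against the day of culture, for Msgn1, Tbx6 and Mesp2 in the 3 MULTI-seq experiments. Small points are gastruloids, large symbols means and bars the SD. In MULTI-seq 3 the mean of Msgn1 goes from 21.3 at day 3.5 to 3.76 at day 5 and that of Mesp2 from 0.15 to 19.2, while Tbx6 keeps between 148 and 170.

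In Late Anterior PSM all 3 days of MULTI-seq 3 overlapped for each of the genes found there. Mesp2 had 102 ± 48.1 (n = 10), 98.1 ± 54.4 (n = 9, lowest 34.4, median 84.7, highest 205) and 127 ± 35.2 CPM (n = 15) at days 4, 4.5 and 5. Ripply2 had 209 ± 102, 345 ± 133 (lowest 183, median 343, highest 646) and 399 ± 170 CPM, and Tbx6 31.1 ± 11.3, 43.4 ± 12.3 and 35.3 ± 12.6. Ripply1 had 9.46 ± 7.25, 14.8 ± 8.82 (lowest 1.51, median 11.5, highest 31.6) and 8.55 ± 5.01 CPM. Between days 4.5 and 5, Tbx6 (-0.31, adjusted p = 0.43), Mesp2 (0.31, SE 0.23, adjusted p = 0.59) and Ripply2 (0.15, SE 0.24, adjusted p = 0.84) were not called by edgeR, where 2.73% of genes were. Both changed sign without lane B of that pool, to -0.11 for Mesp2 and -0.32 for Ripply2. In the 4 gastruloids of MULTI-seq 2 with enough of these cells at day 4.5, Mesp2 had 94.7, 124, 183 and 204 CPM and Ripply2 97.2, 315, 328 and 464. In the fit without a filter Ripply1 gave -0.66 (SE 0.23, adjusted p = 0.13) in Late Anterior PSM, where 1.71% of genes were called. In Mature Somites Ripply1 was called. It went from 4.58 ± 2.60 CPM at day 4.5 (n = 13, lowest 0, median 3.82, highest 10.0) to 2.26 ± 1.09 at day 5 (n = 16, lowest 0.834, median 2.05, highest 4.98), a log2 fold change of -1.04 (SE 0.22, adjusted p = 6.0e-04), where 13.8% of genes were called. With a lane left out Ripply1 fell below the filter in these cells, and no value by lane is given here for its call. The gastruloids of the 2 days overlap, and Mesp2 and Ripply2 stood below 1 CPM on average in these cells on both days. The median summed levels there were 1545 and 1619 CPM for the somite markers, 399 and 333 for the anterior PSM markers and 80.6 and 108 for the posterior PSM markers, and their part in the change was not tested.

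The same day could be compared between experiments, where experiment, culture, library and lanes cannot be told apart. At day 5, Late Posterior PSM of MULTI-seq 3 and MULTI-seq 1 had 148 ± 24.6 and 153 ± 26.9 CPM of Tbx6 (n = 16 and 22) and 19.2 ± 9.44 and 21.6 ± 12.4 of Mesp2, and neither was called (0.09 for both, SE 0.07 and 0.24, adjusted p 0.25 and 0.77), where 53.4% of genes were. Leaving out 1 lane at a time gave both signs for Mesp2 (-0.13 to 0.29). These fold changes are on TMM-scaled counts, and the means in CPM lie in the opposite order. Msgn1 was called. It was at 0 in 13 of 22 gastruloids of MULTI-seq 1 (mean 0.894 ± 1.46, highest 4.86) and in 2 of 16 of MULTI-seq 3. It was higher in MULTI-seq 3 by 2.05 (log2, SE 0.35, adjusted p = 2.4e-07) without a filter, where 24.1% of genes were called. That call was not checked by lane. In Late Anterior PSM Ripply2 was higher in MULTI-seq 3, at 399 ± 170 against 271 ± 104 CPM (n = 15 and 19, lowest 138, median 269 and highest 611 in MULTI-seq 1), by 0.75 (SE 0.18, adjusted p = 0.0012), where 46.4% of genes were called. Mesp2 there had 127 ± 35.2 and 177 ± 75.6 CPM and was not called (-0.39, SE 0.17, adjusted p = 0.057). Without lane 2 of MULTI-seq 1, or without lane B of the MULTI-seq 3 pool, it was, at -0.50 (adjusted p = 0.037) and -0.69 (adjusted p = 0.0054). Without lane A or lane C of that pool Mesp2 gave -0.28 and -0.29 (adjusted p 0.18 and 0.34). Tbx6 there, at -0.29 (adjusted p = 0.13), was called without lane 2 (-0.42) or lane B (-0.39) and gave -0.15 (adjusted p = 0.51) without lane C.

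Ripply1 was higher in MULTI-seq 3 than in MULTI-seq 1 at day 5, in whole gastruloids at 1.35 ± 0.769 against 0.612 ± 0.527 CPM (n = 16 and 24, log2 fold change 1.27, SE 0.32, adjusted p = 9.5e-04, 35.5% of genes called). In Mature Somites it had 2.26 ± 1.09 against 1.26 ± 1.55 CPM (n = 16 and 23, log2 fold change 1.06, SE 0.31, adjusted p = 0.0059, 24.5% of genes called). Both come from fits without a filter and were not checked by lane. Whole gastruloids gave -0.57 for Tbx6, -0.58 for Mesp2 and 0.53 for Ripply2 (adjusted p 0.098, 0.092 and 0.13), where 63.6% of genes were called. Mesp2 was called without lane B of the MULTI-seq 3 pool (-0.80, adjusted p = 0.019), and Ripply2 was then at 0.31 (adjusted p = 0.38). Against MULTI-seq 2, Tbx6 in Late Posterior PSM was lower in MULTI-seq 3 at day 4 (155 ± 13.6 against 162 ± 32.6 CPM, log2 fold change -0.24, SE 0.09, adjusted p = 0.040, 31.6% of genes called) and at day 4.5 (168 ± 30.7 against 196 ± 22.8, -0.22, SE 0.07, adjusted p = 0.020, 29.3% called). The fold changes are on TMM-scaled counts, and the ranges in CPM overlap on both days. Leaving out lane 2 of pool B ended both calls (-0.10, adjusted p = 0.60, and -0.20, adjusted p = 0.12), while leaving out lane 3 of pool B gave -0.47 (adjusted p = 0.017) and -0.28 (adjusted p = 0.028). Leaving out lane B or lane C of the MULTI-seq 3 pool ended the call of day 4 (adjusted p = 0.071 and 0.062), as did dropping the filter (adjusted p = 0.12). The change from day 4 to day 4.5 was not called as different between MULTI-seq 3 and MULTI-seq 2 for any of the 5 genes (adjusted p 0.44 to 0.90), where 33.9% of 12551 genes were. In MULTI-seq 3 these days come from different pools, so this difference between experiments also holds the difference between pools.

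In single cells the genes were sparse, so cells were thinned to 5000 UMIs each before shares of cells with at least 1 UMI were compared between names (shares without thinning in brackets, and a share of cells with a UMI is not a share of cells expressing the gene). At day 4 of MULTI-seq 3, Tbx6 was found in 51.9% (94.8%) of Late Posterior PSM, 42.1% (87.0%) of Early Posterior PSM, 12.3% (47.0%) of Early Anterior PSM and 11.8% (47.3%) of Late Anterior PSM cells. Msgn1 was found in 5.11% (29.3%) of Late and 3.08% (13.5%) of Early Posterior PSM cells. Mesp2 was found in 23.9% (47.3%) of Late Anterior, 19.3% (42.4%) of Early Anterior, 12.8% (37.2%) of Early Posterior and 2.03% (7.71%) of Late Posterior PSM cells. For Msgn1 and Mesp2 the order of the shares is that of the CPM values, and for Tbx6 the 2 anterior names, close in both measures, change places. Ripply2 was found in 36.3% (67.9%) of Late Anterior, 32.6% (61.8%) of Early Anterior and 4.33% (14.3%) of Early Posterior PSM cells. Ripply1 was found in 3.38% (16.6%) of Late and 1.74% (6.85%) of Early Anterior PSM cells, and in 0 of 1917 Early and 0 of 1232 Late Posterior PSM cells, which allows shares of up to 0.156% and 0.244% (3 counts of the total). As a measure of free RNA, 2 of 2098 Late Spinal Cord cells at day 5 (0.0953%) had a UMI of Tbx6, and as many had one of Mesp2 and of Ripply2 (1.14%, 1.29% and 1.10% unthinned, median depth 31399 UMIs). Late Anterior PSM cells of that day, with a median depth of 24948 UMIs, had 25.6% (43.5%) for Mesp2 and 44.8% (63.4%) for Ripply2. Day 4 came from another pool. There Tbx6 had 1.45 CPM in 1188 Mature Endoderm cells and 1.58 in 94 Late Spinal Cord cells, against 0.338 in Late Spinal Cord of day 5. Mesp2 had 0.418 CPM in Mature Endoderm of day 4 and 0.371 in Late Spinal Cord of day 5.

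**Figure D4:**
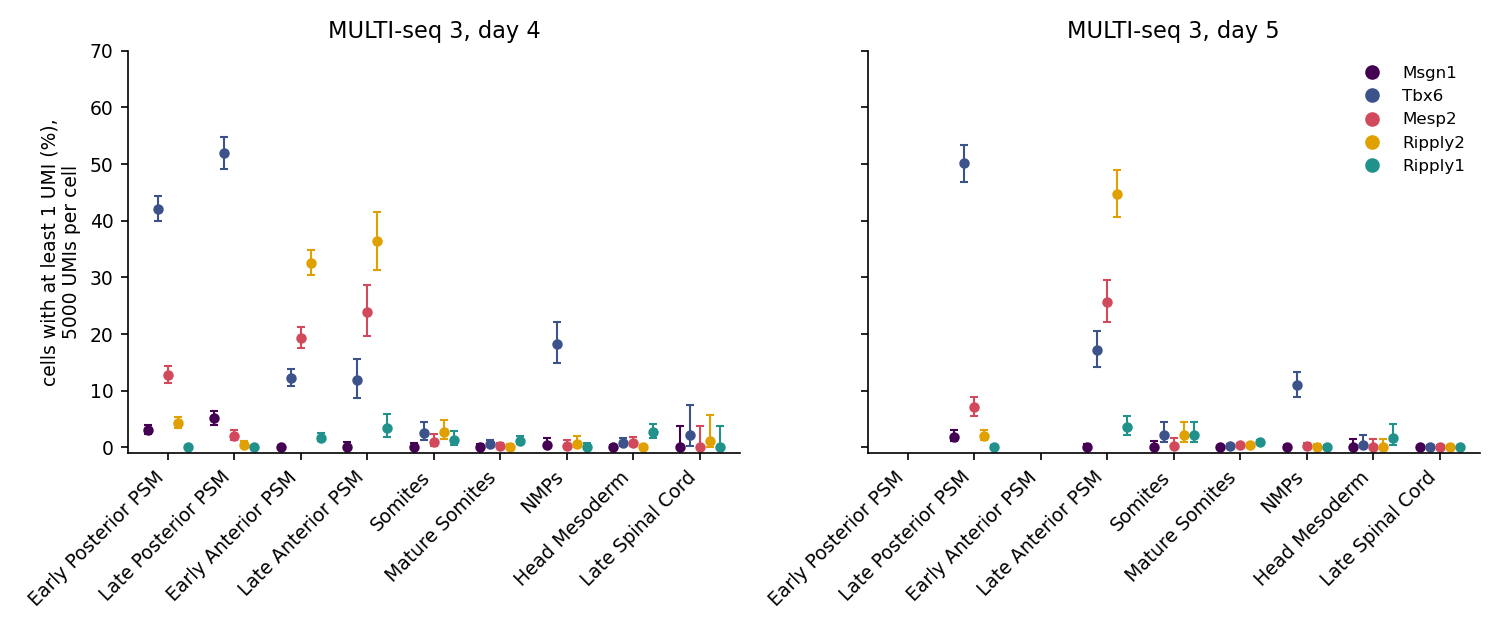
Percent of cells with at least 1 UMI of each gene after thinning to 5000 UMIs per cell, by cell type name, at day 4 (left) and day 5 (right) of MULTI-seq 3. Points are shares over all cells of a name and bars exact binomial 95% intervals, which cover counting error only. Tbx6 is found in 51.9% of Late Posterior PSM cells at day 4, and Late Spinal Cord cells of day 5 lie near 0 for all 5 genes.

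Within a name, cells in which a Mesp2 UMI was found differed from cells in which none was, and the sign depended on the gene and, for Tbx6, on the name. Cells of a gastruloid are not replicates, so these are descriptions, and the split by Mesp2 was repeated inside each gastruloid with at least 5 cells on both sides. Thinning removes UMIs, so some cells counted as without Mesp2 had held a Mesp2 UMI before it, and that side is mixed. Ripply2 was found more often in cells with Mesp2 in the anterior names and in Early Posterior PSM. It was found in 166 of 344 (48.3%) against 414 of 1436 (28.8%) Early Anterior PSM cells of day 4, and in 91 of 143 (63.6%) against 159 of 415 (38.3%) Late Anterior PSM cells of day 5. It was higher on the Mesp2 side in 13 of 13 and in 12 of 13 gastruloids. Late Anterior PSM gave 52.9% against 31.1% at day 4, higher in 7 of 8, 52.9% against 41.4% at day 4.5, higher in 4 of 5, and 57.7% against 34.9% in MULTI-seq 1, higher in 10 of 14. Without thinning the shares were 69.4% against 56.2% in Early Anterior PSM of day 4 and 73.7% against 55.6% in Late Anterior PSM of day 5. Unthinned Late Anterior PSM of day 4.5 gave 70.2% against 61.5%, higher in 5 and lower in 2 of 8. Early Posterior PSM of day 4 gave 9.35% against 3.59%, higher in 9 of 10, and without thinning 22.9% against 9.30%, higher in 12 of 13. In MULTI-seq 2, read without thinning, that name was higher in 6 of 7. Late Posterior PSM held few cells with Ripply2, and its gastruloids were less uniform. At day 5 Ripply2 was found there in 3 of 67 cells with Mesp2 (4.48%) and 16 of 872 without (1.83%), higher on the Mesp2 side in 2 and lower in 2 of 5 gastruloids, and in MULTI-seq 1 it was higher in 5 and lower in 1 of 11. In unthinned cells of day 4 the shares were 4.21% and 3.69%, higher in 2 and lower in 3 of 8. The unthinned cells gave a higher share on the Mesp2 side in 5 and a lower one in 3 of 8 at day 4.5, in 11 and 2 of 13 at day 5, and in 9 and 4 of 15 of MULTI-seq 1.

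For Tbx6 the sign differed between Early Posterior and Early Anterior PSM of day 4. In Early Posterior PSM of day 4 it was found in 80 of 246 cells with Mesp2 (32.5%) and 727 of 1671 without (43.5%), and was lower on the Mesp2 side in 10 of 10 gastruloids. In Early Anterior PSM of the same day it was found in 79 of 344 (23.0%) and 140 of 1436 (9.75%), higher on the Mesp2 side in 13 of 13. Both directions were also seen in the unthinned cells, with 81.9% against 90.0% and 62.8% against 35.3%. There Tbx6 was lower on the Mesp2 side in 11 and higher in 2 of 13 gastruloids in Early Posterior PSM and higher in 14 of 14 in Early Anterior PSM, and in Early Posterior PSM of MULTI-seq 2 it was lower in 5 and higher in 2 of 7. In Late Anterior PSM Tbx6 was higher on the Mesp2 side in 7 of 8 gastruloids at day 4 (22.4% against 8.52%), 3 of 5 at day 4.5 (21.6% against 17.2%), 9 of 13 at day 5 (21.0% against 15.9%) and 10 of 14 of MULTI-seq 1 (27.6% against 16.0%). Its unthinned cells gave 9 of 9, 8 of 8, 12 of 14 and 16 of 17. In Late Posterior PSM it was lower on the Mesp2 side in 4 of 5 at day 5 (37.3% against 51.1%) and 7 of 11 of MULTI-seq 1 (47.0% against 53.8%). In unthinned Late Posterior PSM cells of day 4 it was higher in 4 and lower in 4 of 8 gastruloids, at day 4.5 higher in 4 and lower in 2 of 8, at day 5 higher in 3 and lower in 10 of 13, and in MULTI-seq 1 higher in 2 and lower in 13 of 15. Msgn1 and Mesp2 seldom met in a cell of Early Posterior PSM of day 4. Of 59 Early Posterior PSM cells with Msgn1 at day 4, 2 had Mesp2 (3.39%), against 244 of 1858 without Msgn1 (13.1%), and Msgn1 was lower on the Mesp2 side in 9 and higher in 1 of 10 gastruloids. In unthinned cells Msgn1 was found in 4.21% of cells with Mesp2 and 19.0% without, and was lower on the Mesp2 side in 13 of 13 gastruloids. The same name of MULTI-seq 2 gave 3.92% and 11.8%, lower in 5 and higher in 1 of 7. In unthinned Late Posterior PSM cells Msgn1 was lower on the Mesp2 side in 7 and higher in 1 of 8 gastruloids at day 4 (16.8% against 30.3%), in 5 and 3 of 8 at day 4.5 (11.4% against 18.7%) and in 10 and 2 of 13 at day 5 (3.21% against 11.7%). Of the 59 thinned Early Posterior PSM cells with Msgn1, 34 had Tbx6 (57.6%), against 773 of the 1858 without (41.6%).

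Within the anterior names Ripply1 was found less often in cells with Mesp2, where Tbx6 and Ripply2 were found more often. In Late Anterior PSM of day 5 it was found in 1 of 143 cells with Mesp2 (0.699%) and 19 of 415 without (4.58%). Late Anterior PSM of MULTI-seq 1 gave 0 of 196 (which allows up to 1.53%) and 21 of 424 (4.95%). Early Anterior PSM of day 4 gave 2 of 344 (0.581%) and 29 of 1436 (2.02%), and Late Anterior PSM gave 0 of 85 (which allows up to 3.53%) and 12 of 270 (4.44%) at day 4 and 1 of 51 (1.96%) and 12 of 157 (7.64%) at day 4.5. The counts behind Ripply1 are small. Its share was lower on the Mesp2 side in 10 and higher in 2 of 13 gastruloids in Early Anterior PSM of day 4. In Late Anterior PSM it was lower in 4 and higher in 0 of 8 at day 4, lower in 2 and higher in 1 of 5 at day 4.5, lower in 10 and higher in 0 of 13 at day 5, and lower in 9 and higher in 0 of 14 of MULTI-seq 1. In unthinned Late Anterior PSM cells of day 4 it was lower in 6 and higher in 3 of 9. In unthinned Late Anterior PSM cells of day 5 the shares were 15 of 243 (6.17%) and 50 of 315 (15.9%).

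**Figure D5:**
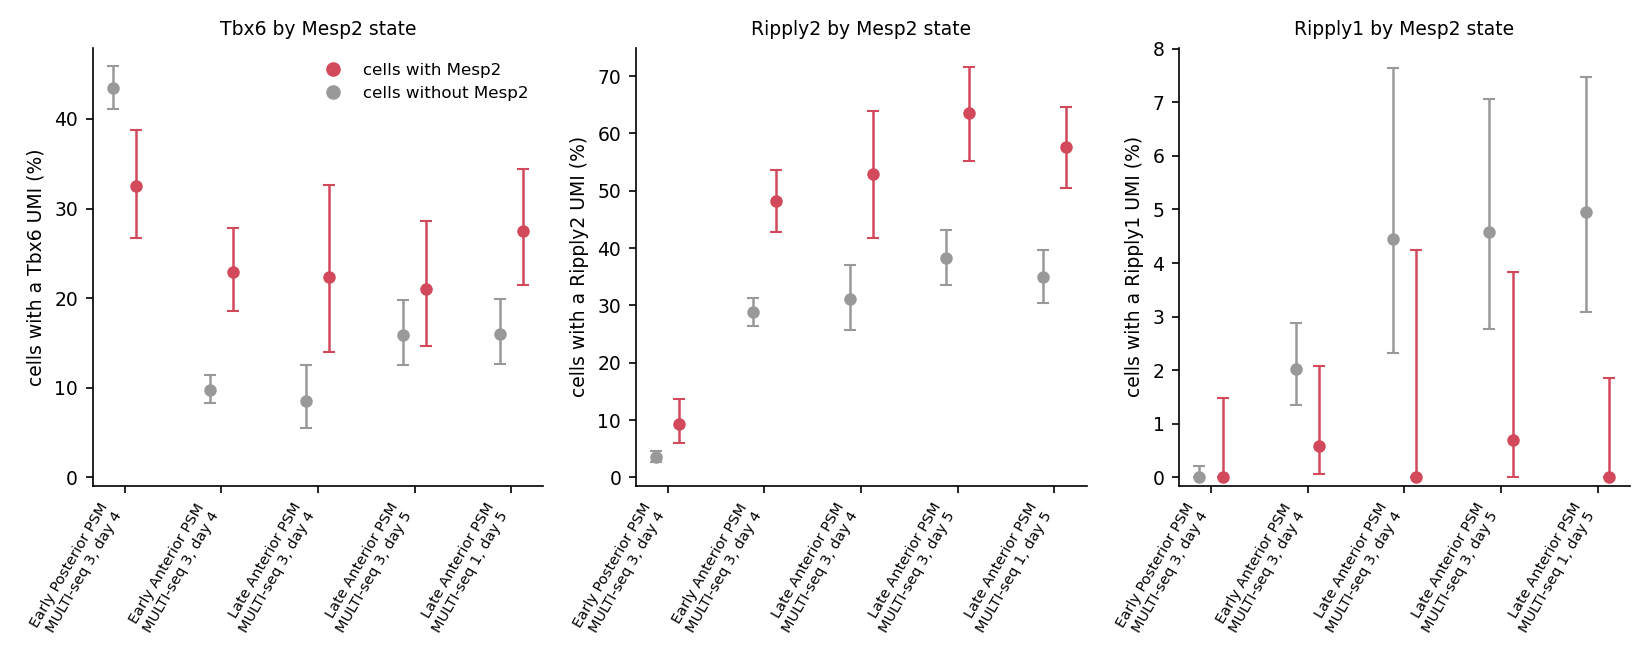
Percent of cells with a UMI of Tbx6 (left), Ripply2 (middle) or Ripply1 (right) among cells with a Mesp2 UMI (red) and without one (grey), thinned to 5000 UMIs, in 5 sets of cells. Some grey cells held a Mesp2 UMI before thinning. Bars are exact binomial 95% intervals of counting error. In Late Anterior PSM at day 5 of MULTI-seq 3, Ripply2 stands at 63.6% against 38.3% and Ripply1 at 0.699% against 4.58%, and Tbx6 is lower with Mesp2 in Early Posterior PSM only among the 5 sets shown.

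Other genes of the pathway were read between days 3.5 and 4 of MULTI-seq 3 in the same whole gastruloids, where 60.3% of all genes tested were called and their median log2 fold change was 0.01. The shares called among the posterior regulators and among the Notch and clock genes are near that background. Of 12 regulators of posterior progenitors and PSM, 7 fell and 0 rose (median -0.90), among them Nkx1-2, a homeobox gene of caudal progenitors (-2.22), Evx1 (-1.54) and the Wnt target Sp5 (-1.14). The ligand Fgf8 fell by 0.66. Of 12 genes of the Notch pathway and segmentation clock, 5 rose and 3 fell (median 0.39), with Hey1, a Notch target, at 1.68 and Lfng, a modifier of Notch, at 1.40, and with the feedback inhibitors Nkd1 (-0.76) and Dusp6 (-0.72) among those that fell. All 9 tested genes of 11 of the determination front and somite boundary rose (median 1.43), from the Eph receptor gene Epha4 at 0.76 to Cer1, a secreted antagonist, at 4.60. Ripply3, the third member of the Ripply family, rose by 1.21 and the forkhead gene Foxc2 by 3.61. All 5 tested of 10 somite genes rose (median 3.75), among them the transcription factor genes Tcf15 (4.67), Meox1 (4.47), Sim1 (3.18) and Pax7 (1.75). Inside Early Posterior PSM, where 38.2% of all genes tested were called, 8 of the 12 posterior regulators fell and 0 rose. There 5 of 12 Notch and clock genes rose and 1 fell, 6 of 7 boundary genes tested rose and 1 fell, and all 3 somite genes tested rose. A gene low at day 3.5 is tested only if it has enough counts at day 4, which fixes its direction. The somite names held no cells in the 16 gastruloids of day 3.5. The counts of rising somite and boundary genes, in whole gastruloids and in Early Posterior PSM, are therefore only descriptions.

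In the later comparisons 13.3% (days 4.5 and 5 of MULTI-seq 3) and 7.19% (days 4 and 4.5 of MULTI-seq 2) of all genes were called in whole gastruloids, and there each list held 0 to 2 called genes. Between days 4.5 and 5 of MULTI-seq 3, in whole gastruloids, 1 of 12 posterior regulators fell (the ligand Fgf4, -1.53) and 1 of 12 Notch and clock genes rose (Hes1, 0.26). Of 11 boundary genes 1 rose (Uncx, a homeobox gene of the rear of each somite, 1.24) and 1 fell (Aldh1a2, the enzyme of retinoic acid synthesis, -1.14), and of 7 somite genes tested 1 rose (Meox2, 1.52). Between days 4 and 4.5 of MULTI-seq 2, T (-1.29) and Sp5 (-1.13) fell among the 12 posterior regulators and Nkd1 (-0.62) and Axin2 (-0.55) among the 12 Notch and clock genes. There 0 of 9 boundary and 0 of 4 somite genes were called. Days 4.5 and 5 of MULTI-seq 3 were also compared within single names. In Late Posterior PSM, where 6.72% of all genes were called, 4 of 8 posterior regulators tested fell and 0 rose, 2 of 12 Notch and clock genes rose, 3 of 7 boundary genes rose and 1 fell, and 1 of 2 somite genes rose. In Mature Somites, where 13.8% were called, 2 of 5 posterior regulators tested and 4 of 7 somite genes rose and 0 fell, 3 of 11 Notch and clock genes rose and 1 fell, and 1 of 8 boundary genes rose and 2 fell. Late Anterior PSM, where 2.73% were called, held 0 or 1 called gene in each direction in every list. In Somites, where 3.48% were called, 2 of 11 Notch and clock genes rose, 2 of 8 boundary genes fell, and 0 of 2 posterior regulators and 0 of 4 somite genes tested were called.

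Over 68 sums of cells by name and day in MULTI-seq 3, the genes most alike in pattern, members left out (Pearson r of log2(CPM + 1), 12335 genes) differed by member, and r over 39 sums of MULTI-seq 1 and 2 is given second. The sums share libraries and depth, so r is a description. For Msgn1 they were Smc6 (0.88 and 0.76), Tg (0.84 and 0.78) and S1pr5 (0.82 and 0.75). Smc6, a subunit of an SMC complex of DNA repair, lies 56.91 kb from Msgn1. For Tbx6 they were Rftn1 (0.93 and 0.86), Peli3 (0.91 and 0.90) and the Notch ligand gene Dll3 (0.91 and 0.93). For Mesp2 they were Cd2 (0.92 and 0.89), Pdhx (0.88 and 0.94) and Gm47448 (0.87 and 0.92). For Ripply2 they were Pdhx (0.95 and 0.91), the protocadherin gene Pcdh8 (0.88 and 0.84) and BC035044 (0.87 and 0.82), so that Pdhx, a component of the pyruvate dehydrogenase complex, stood in both lists. For Ripply1 they were Myocd (0.90 and 0.81), Wnt16 (0.89 and 0.76) and Nbl1 (0.88 and 0.80). Among the members, r was 0.91 and 0.93 for Mesp2 with Ripply2 (rank 2 for each when members are counted), 0.76 and 0.72 for Msgn1 with Tbx6, and 0.69 and 0.67 for Ripply1 with Ripply2. It was -0.29 and -0.32 for Msgn1 with Ripply1.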

How the data were processed

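Single-cell RNA-seq of 18 lanes was used. The deposited matrices hold UMI counts per gene and cell barcode, per the file headers from the authors' run of Cell Ranger 6.0.0, and the submitters' processing notes name mm10 and Seurat. Cell type names, days and gastruloid barcodes came from the authors' deposited cell table, and the names are clusters of the same counts. For 9 of its cells, all of the 10X day 4 lane, no matching barcode was found and they were dropped. No doublet caller was run, and cells called doublet, negative or unidentifiable for the gastruloid barcode entered no gastruloid sum. Gastruloids with at least 30 cells, or 10 cells of a name, were compared with edgeR 4.0.16 (R 4.3.3, quasi-likelihood, TMM, filterByExpr, Benjamini-Hochberg over all genes tested, threshold 0.05), after a test on simulated data. DESeq2 1.42.0, RLE size factors, no filter, stricter minimum cell numbers and leaving out each lane were alternatives. Members below the filter took the fit without one. Levels, shares and r used Python 3.11.15, numpy 2.4.6, pandas 2.3.3 and scipy 1.17.1. The p-values measure the spread between gastruloids of a pool. The members and lists were chosen with earlier results of these data known. Named genes were the 5 members, up to 2 called genes with the largest and 2 with the smallest fold change per list and comparison of days in whole gastruloids, and the 3 non-member genes most alike to each member. Lanes without gastruloid calls (10X, pool C of MULTI-seq 2) entered no test.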

Additional observations from a re-analysis of the deposited data

Results flagged for a closer look

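Groups of 4 to 10 gastruloids with a mean of at least 5 CPM were screened for a gastruloid far from the others (Dixon's criterion at 95%), and 2 of 19 groups held one, where chance gives about 1 in 20. Msgn1 stood at 26.56 CPM in 1 of the 8 gastruloids with Late Posterior PSM cells at day 4.5 of MULTI-seq 2, and the next had 11.6. Ripply2 stood at 645.6 CPM in 1 of the 9 gastruloids with Late Anterior PSM cells at day 4.5 of MULTI-seq 3, and the next had 410.

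The lanes without gastruloid calls entered no comparison, and in them the genes, other than Ripply1 at day 3, were above the level that 3 counts allow (0.0467 to 0.0798 CPM over all cells of a lane). The 10X lane of day 3 had 1.816 CPM of Msgn1, 45 of Tbx6, 1.192 of Mesp2 and 0.3852 of Ripply2, and 0 UMIs of Ripply1, which allows up to 0.055 CPM. The 10X lane of day 4 had 0.479 CPM of Msgn1, 55.11 of Tbx6, 13.94 of Mesp2, 0.8515 of Ripply1 and 8.409 of Ripply2. Pool C of MULTI-seq 2, with days 4 and 4.5, had in lanes 1 and 2 Msgn1 at 1.415 and 0.6214, Tbx6 at 31.14 and 28.59, Mesp2 at 6.097 and 8.37, Ripply1 at 0.9643 and 0.6991 and Ripply2 at 11.04 and 13.13 CPM. In Early Posterior PSM cells the 10X lanes had 5.50 CPM of Msgn1 at day 3 (95% Poisson interval 4.16 to 7.12) and 0.887 at day 4, 127 and 166 CPM of Tbx6, and 50.3 CPM of Mesp2 at day 4. Each lane is 1 sample and was not compared.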

How the results depend on the processing

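No paired analysis was possible because the replicate numbers label lanes, each lane of a pool holds both days compared, and the gastruloids, summed over lanes, carry no number that pairs them. Normalization by RLE, DESeq2, no filter and stricter cell minimums kept the direction and call of 87 of 88 member values of the comparisons of days, all of members that passed the filter. Reversed were Ripply2 in Late Anterior PSM from day 4.5 to 5 with at least 20 cells (-0.12), Ripply1 (-0.49) and Ripply2 (-0.20) between MULTI-seq 3 and 2 at day 4 with at least 100 cells, and Tbx6 between them at day 4.5 with DESeq2 (0.053, main -0.00), none of them called. Counts of called genes moved for day 5 against 4.5 in Late Anterior PSM (main 183, no filter 304, at least 20 cells 112) and Somites (214, 331 and 48), for MULTI-seq 2 Late Posterior PSM (main 61, no filter 123, DESeq2 39) and for MULTI-seq 3 against 1 in Somites (main 1555, at least 20 cells 969).

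Leaving out 1 lane at a time gave, for day 5 against 4.5, 268 to 333 called genes in Late Posterior PSM (main 525), 90 to 140 in Late Anterior PSM and 68 to 115 in Somites; for MULTI-seq 2, 322 to 500 in whole gastruloids (main 795) and 15 to 30 in Late Posterior PSM; for MULTI-seq 3 against 2 at day 4, 1506 to 2696 in Early Posterior PSM (main 2716) and 947 to 2878 in Late Posterior PSM (main 2930). Log2 fold changes of day 5 against 4.5 ranged, in whole gastruloids, from -0.069 to 0.092 for Mesp2, -0.17 to 0.18 for Ripply2 and -1.53 to -1.07 for Msgn1. They ranged from -1.003 to -0.66 for Msgn1 in Late Posterior PSM, -0.11 to 0.38 for Mesp2 and -0.32 to 0.58 for Ripply2 in Late Anterior PSM, and -1.01 to 0.30 for Ripply1 and -1.73 to 0.77 for Ripply2 in Somites. In MULTI-seq 2 they ranged from -0.87 to 0.50 for Mesp2 and -0.51 to 1.14 for Ripply1 in whole gastruloids, and 3.31 to 4.36 for Mesp2 and -0.78 to 0.68 for Ripply2 in Late Posterior PSM. Between experiments they ranged from -0.13 to 0.29 for Mesp2 (MULTI-seq 3 against 1, Late Posterior PSM), -0.70 to 0.62 for Ripply1 (against 2, day 4, whole), -0.21 to 0.019 for Mesp2 and -1.36 to 0.064 for Ripply2 (Early Posterior PSM), and -0.089 to 0.0077 for Tbx6, -0.082 to 0.36 for Mesp2 and -0.044 to 0.33 for Ripply1 (day 4.5, whole). Over the member values of the comparisons of days, leaving out a lane kept 102, reversed 13, ended the call of 2 and added a call to 1. For members below the filter, leaving out lanes was the only alternative in the comparisons of days, and the comparisons between experiments had none. Fewer cells remain without a lane, and the cause of other shifts was not tested. Shares of cells with a UMI depend on depth. At other depths (2000 UMIs or no thinning) 208 lay outside the 95% interval of the share at 5000 UMIs and 132 inside. With at least 20 cells 138 mean levels stayed within 1 SD and 2 did not. Msgn1 and Ripply1, with 2878 and 1839 UMIs in all gastruloid cells, are limited by depth.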

Other observations

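Outside the ladder of PSM and somite names, the genes were also found in earlier and in head mesoderm. Msgn1 in Early Nascent Mesoderm of MULTI-seq 3 had 6.27 ± 4.16 CPM at day 3 (SD, n = 20) and 8.15 ± 1.90 at day 3.5 (n = 6). At day 4 it had 0 UMIs in the 4 gastruloids with enough of these cells. Of the 451 Msgn1 UMIs of day 3, Early Nascent Mesoderm held 123, Primitive Streak 107 and the posterior PSM names 216. Tbx6 in Early Nascent Mesoderm of MULTI-seq 3 had 28.9 ± 9.05 CPM at day 3 (SD, n = 20), 85.2 ± 18.6 at day 3.5 (n = 6) and 55.4 ± 17.1 at day 4 (n = 4). In Caudal Epiblast it had 3.18 ± 2.59 (n = 6), 14.9 ± 10.8 (n = 15) and 37.7 ± 17.3 CPM (n = 15) at these days. Mesp2 in Early Nascent Mesoderm had 6.50 ± 3.92 CPM at day 3 (n = 20), when Early Posterior PSM had 0, and 7.64 ± 4.84 at day 3.5 (n = 6). In Late Nascent Mesoderm of day 4 (n = 14), Mesp2 had 22.5 ± 19.5, Ripply2 41.0 ± 28.4 and Ripply1 4.65 ± 3.75 CPM. Ripply1 in Head Mesoderm had 2.83 ± 1.98 CPM at day 4 (n = 7), 6.21 ± 2.47 at day 4.5 (n = 3) and 5.94 ± 3.11 at day 5 (n = 7) in MULTI-seq 3, and 3.95 ± 1.79 at day 4.5 of MULTI-seq 2 (n = 5). All 114 Head Mesoderm cells of MULTI-seq 1 held 1 Ripply1 UMI (0.699 CPM, 95% exact interval 0.0177 to 3.90, counting error only). Ripply2 in Head Mesoderm of MULTI-seq 3 stayed at 1.67 CPM or below on average.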
